A study of Homo sapiens with 10 samples.

Results

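AP-1 is a transcription factor made of pairs of basic leucine zipper proteins, and its genes are among the first that a cell transcribes after a growth signal. The 10 genes described here were chosen by symbol: the Fos family FOS, FOSB, FOSL1 and FOSL2, the Jun family JUN, JUNB and JUND, and ATF3, EGR1 and IER2. All 10 matched an Ensembl gene ID, of 60623 IDs counted in each library, and all 10 passed the filter on low counts that left 18450 genes to test. Poly(A) RNA was sequenced from A375, a line of human melanoma cells, 72 h after transfection with small interfering RNA (siRNA). Experiment 1 held 4 libraries with siRNA against PHF10, a subunit of the nucleosome remodelling complex PBAF, and 2 control libraries. Experiment 2 held 2 libraries labelled as a knockdown of the transcription factor MYC and 2 control libraries. Each experiment had its own controls, and the labels disagree on whether these received a control siRNA or no treatment. Nothing in the labels ties replicates to separate cultures, so the p-values rest on a spread between samples that may be only technical.

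Fos proteins bind DNA only when paired with a Jun protein, while Jun proteins can also pair with each other. The RAF, MEK and ERK kinase cascade, which an activating BRAF mutation keeps switched on in A375 cells, feeds these genes through ternary complex factors and serum response factor, and it also stabilises the FOS and FOSL1 proteins. FOS, FOSB, EGR1 and IER2 mRNA is short-lived and usually seen in bursts, whereas FOSL1, FOSL2, JUNB and JUND can stay expressed for long periods, and FOSL1 is a known AP-1 subunit of invasive melanoma.

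Reads assigned to genes numbered 20.5 to 38.4 M per library. PHF10 mRNA fell to 16.1, 18.0, 15.0 and 15.7 CPM (read counts per 1 M gene reads, TMM-scaled) in the 4 PHF10 knockdown libraries, against 40.1 and 36.6 CPM in their controls. By the edgeR quasi-likelihood test with Benjamini-Hochberg adjustment, the log2 fold change was −1.24 (adjusted p = 0.00105, SE 0.10; n = 4 and 2). In experiment 2 the groups overlapped in MYC mRNA, with 16.7 and 13.3 CPM in the labelled MYC knockdown libraries against 15.0 and 26.5 CPM in the controls (log2 fold change −0.46, SE 0.39, adjusted p = 0.688). Every direction drawn from that comparison therefore rests on the labels. Replicates spread far more in experiment 1, whose common biological coefficient of variation was 26.7% when fitted alone, against 3.39% in experiment 2 alone and 21.4% over all libraries. Within experiment 1, 3 libraries (PHF10 knockdown replicates 1 and 2 and control replicate 1) had 12.1% to 13.8% of their reads outside annotated genes, and the other 3 had 9.93% to 10.6%. The same 3 libraries had a mean of 7.44 to 8.15 log2 CPM over 26 type I interferon genes, against 3.25 to 4.70 log2 CPM in the other 3. Melanocyte lineage genes fitted the label only in part: SOX10 stood at 528 to 948 CPM, but the pigment genes MLANA and TYR were at or under 0.0571 CPM. The immune gene PTPRC and the epithelial gene CDH1 were at or under 0.130 CPM in every library. Other markers of those lists were expressed, with CD74 at 2394 to 3972 CPM, LYZ at 1.36 to 30.4, CLDN4 at 8.90 to 41.6 and KRT14 at 2.86 to 11.3 CPM. In bulk RNA, fewer cells expressing a gene and less RNA per cell cannot be told apart.

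Promoter windows were read for the genes from RefSeq (GRCh38.p14, the 250 bases before the start), which matched 9 of the 10; FOSL1 had no entry. They were searched on both strands for the AP-1 site TGANTCA, the CRE-like site TGACNTCA, the CArG box bound by serum response factor and the EGR site GCGNGGGCG; no match overlapped another. The 3 windows below belong to EGR1, which had the largest fold in the labelled MYC knockdown libraries, to JUN, which had the largest after PHF10 knockdown, and to FOSL2, which separated the controls under every alternative tried. Capitals mark the motif matches, and each line runs 5′ to 3′ on the gene's strand, at chr5:138465229-138465478 (plus), chr1:58784048-58784297 (minus) and chr2:28392608-28392857 (plus).
EGR1: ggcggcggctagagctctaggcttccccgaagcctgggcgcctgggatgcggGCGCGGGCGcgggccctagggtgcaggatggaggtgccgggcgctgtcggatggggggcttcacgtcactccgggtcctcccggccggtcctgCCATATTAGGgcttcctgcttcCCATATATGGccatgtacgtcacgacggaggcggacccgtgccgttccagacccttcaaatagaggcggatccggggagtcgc
JUN: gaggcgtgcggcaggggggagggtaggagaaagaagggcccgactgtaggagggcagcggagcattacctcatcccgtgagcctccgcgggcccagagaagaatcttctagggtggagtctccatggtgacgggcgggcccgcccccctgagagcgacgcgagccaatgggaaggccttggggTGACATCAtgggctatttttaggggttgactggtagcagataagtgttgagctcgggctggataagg
FOSL2: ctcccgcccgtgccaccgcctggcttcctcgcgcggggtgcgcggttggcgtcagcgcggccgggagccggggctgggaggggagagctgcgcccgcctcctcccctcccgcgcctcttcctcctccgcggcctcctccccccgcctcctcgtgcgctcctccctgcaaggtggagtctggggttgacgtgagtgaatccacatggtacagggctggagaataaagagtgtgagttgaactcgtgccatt
The EGR1 window held an EGR site starting 198 bases before the start and CArG boxes at 105 and 83 bases. The JUN window held the CRE-like site TGACATCA at 67 bases. Of the windows not printed, JUND held TGACGTCA at 200 bases and 1 of the 2 ATF3 windows held TGACATCA at 123 bases. No match was found in the FOS, FOSB, FOSL2, JUNB or IER2 windows. Sites outside the 250 bases were not searched, so a promoter without a match here may still hold one. Over 35116 RefSeq windows of the same length, 6.57% held TGANTCA, 6.87% TGACNTCA, 1.16% a CArG box and 8.41% GCGNGGGCG. A match is a string of letters and not a shown binding site.

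Levels were compared between genes as CPM per kb of exon, with the exons of all annotated transcripts of a gene merged. The order depends on that length. In CPM not scaled by length, IER2 averaged above JUNB in experiment 2. Means were 251 against 234 CPM in the labelled MYC knockdown libraries and 207 against 198 CPM in the controls. FOSL1, which encodes the Fos family protein Fra-1, was the most abundant of the 10 in experiment 2, at 197 ± 15.8 CPM per kb in the labelled MYC knockdown libraries and 255 ± 2.96 in the controls (SD, n = 2 each). JUNB was next, at 129 ± 8.15 CPM per kb in the labelled libraries and 109 ± 7.40 in the controls. IER2, a short nuclear protein induced by serum, stood at 81.7 ± 8.26 in the labelled libraries and 67.5 ± 2.81 in the controls, and JUND at 51.4 ± 1.04 in the labelled libraries and 60.2 ± 2.38 in the controls. In the controls of experiment 2 these 4 genes did not overlap one another, and FOSL2, JUN and EGR1 followed at 16.6 ± 0.239, 9.07 ± 0.764 and 6.90 ± 0.274 CPM per kb. FOSB and FOS overlapped there at 3.05 ± 0.0472 and 2.98 ± 0.0998, and ATF3 was lowest at 2.05 ± 0.358 CPM per kb. Experiment 1 had a flatter order. PHF10 knockdown libraries averaged 70.7 ± 35.0 CPM per kb of FOSL1, 68.8 ± 14.3 of JUNB, 47.3 ± 11.5 of JUND and 38.9 ± 8.09 of IER2 (SD, n = 4). The controls of experiment 1 averaged 50.9 ± 2.91 of FOSL1, 50.8 ± 10.3 of JUNB, 46.6 ± 3.15 of JUND and 37.8 ± 8.31 of IER2 (SD, n = 2), and neighbouring genes in this order overlapped within each group except JUND and IER2 in the controls. EGR1 then stood at 15.0 ± 8.53 in PHF10 knockdown and 11.7 ± 3.84 in controls, and the other 5 genes averaged 2.95 to 6.70 CPM per kb in PHF10 knockdown and 2.26 to 4.92 in controls.

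**Figure D1:**
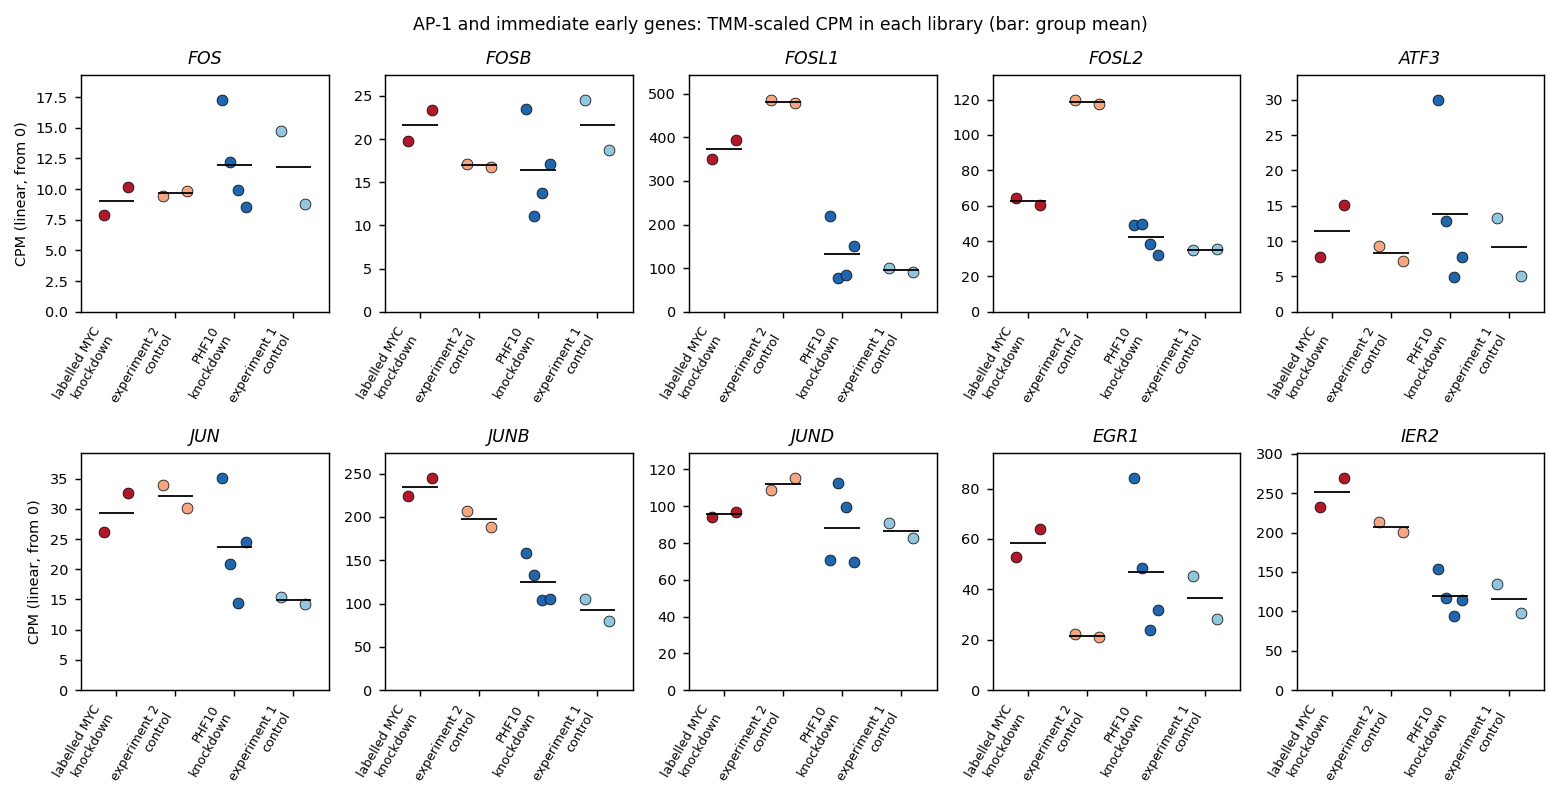
TMM-scaled CPM of each of the 10 genes on linear axes from 0, with 1 point per library and a bar at the group mean. In each panel the groups run from the labelled MYC knockdown libraries and their controls to PHF10 knockdown and its controls. FOSL1 lies at 351 to 486 CPM in experiment 2 and at 78.4 to 219.7 CPM in experiment 1.

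The make-up of each family followed from these levels. FOSL1 gave 83.3% ± 5.75 of the length-scaled Fos family reads in PHF10 knockdown (range 76.6% to 88.6%, n = 4) and 80.4% ± 1.69 in the controls of experiment 1. Its share was 92.8% ± 0.311 in the labelled MYC knockdown libraries and 91.9% ± 0.0252 in the controls of experiment 2. FOSL2, the Fra-2 gene, came second, at 8.14% ± 3.74 in PHF10 knockdown, 7.80% ± 0.626 in its controls, 4.12% ± 0.515 in the labelled MYC knockdown libraries and 5.96% ± 0.0184 in theirs. FOS and FOSB, the subunits with a strong activation domain, gave 4.84% and 3.69% in PHF10 knockdown, 5.68% and 6.12% in its controls, 1.31% and 1.82% in the labelled MYC knockdown libraries and 1.07% and 1.10% in theirs. Among the Jun genes JUNB, a weaker activator than JUN, gave 55.8% ± 6.48 in PHF10 knockdown, 49.8% ± 3.40 in its controls, 68.3% ± 0.526 in the labelled MYC knockdown libraries and 61.0% ± 2.17 in theirs. JUND made up 38.7% in PHF10 knockdown, 46.0% in its controls, 27.3% in the labelled MYC knockdown libraries and 33.9% in theirs. JUN, the founding member, gave only 4.15% to 5.47% of Jun family reads on average in any group. These shares describe mRNA and are sums that share a denominator, so they were not tested.

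**Figure D2:**
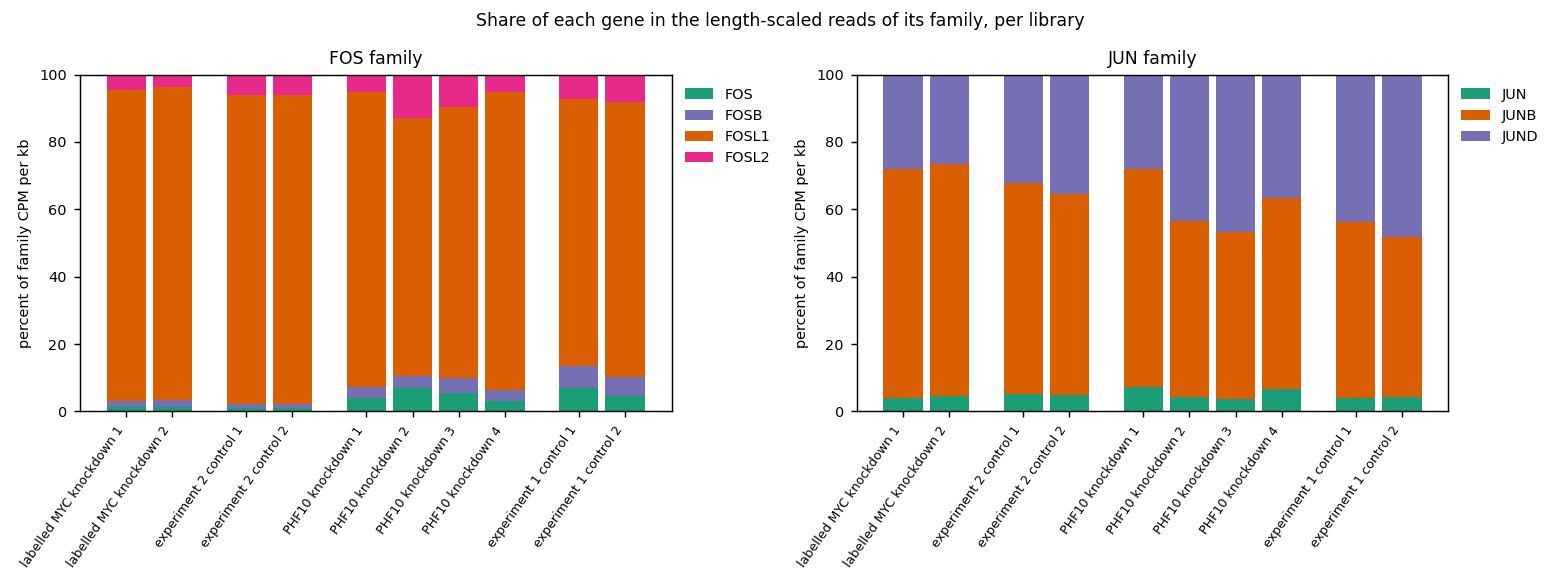
Percent of the length-scaled reads (CPM per kb) of the Fos family and of the Jun family given by each gene, as stacked bars that sum to 100% in each library. FOSL1 makes up 76.6% or more of the Fos family in every library, and JUNB and JUND together make up most of the Jun family.

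PHF10 knockdown was set against the experiment 1 controls to ask which genes respond to the loss of PHF10. None of the 10 genes was past the threshold of an adjusted p under 0.05 (edgeR quasi-likelihood), a threshold that 6.34% of all genes tested passed. DESeq2 and limma-voom also called 0, beside 2180 and 1096 of 18450 genes. In the edgeR fit of all libraries 2 genes, JUN and JUNB, had an unadjusted p under 0.05, as did 22.7% of all genes. Fitted on experiment 1 alone, 0 of the 10 had an unadjusted p under 0.05, beside 2808 of 17849 genes. In that fit 0.28% of all genes were past the threshold. Fold changes were positive for 9 of the 10, with a median log2 fold change of 0.31 against 0.02 over all genes. The ranges of the groups overlapped for all 10, whereas 27.2% of all genes had ranges that did not.

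Of the Fos family, FOS measured 17.3, 12.2, 9.89 and 8.55 CPM in replicates 1 to 4 of PHF10 knockdown, against 14.8 and 8.77 CPM in the controls. The log2 fold change was 0.03 (SE 0.29; 95% interval −0.63 to 0.68; adjusted p = 0.974). FOSB measured 23.5, 11.1, 13.7 and 17.1 CPM in PHF10 knockdown, against 24.5 and 18.7 CPM in the controls. It was the only member with a negative value, −0.40 (SE 0.26; adjusted p = 0.396), and PHF10 knockdown replicate 1 lay between the 2 controls. FOSL1 measured 219.7, 78.4, 85.2 and 150.0 CPM in PHF10 knockdown, against 99.8 and 92.1 CPM in the controls. Knockdown replicates 1 and 4 were above both controls and replicates 2 and 3 below both, giving 0.47 (SE 0.36; adjusted p = 0.483), and 0.12 without replicate 1. FOSL2 measured 49.1, 49.6, 38.5 and 32.4 CPM in PHF10 knockdown, against 35.2 and 35.3 CPM in the controls. Only replicate 4 was below the controls, and the value was 0.27 (SE 0.17; adjusted p = 0.386).

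JUN measured 35.1, 20.8, 14.5 and 24.5 CPM in PHF10 knockdown, against 15.5 and 14.3 CPM in the controls. Its log2 fold change of 0.67 (SE 0.29; 95% interval 0.02 to 1.32) was the largest of the 10, at an unadjusted p of 0.0444 in the edgeR fit and an adjusted p of 0.206. Replicate 3 lay between the controls and the other 3 above both. JUNB measured 159, 133, 104 and 106 CPM in PHF10 knockdown, against 106 and 79.3 CPM in the controls. Its value was 0.44 (SE 0.19; unadjusted p = 0.0486 in the edgeR fit, adjusted p = 0.217), with replicates 3 and 4 just under the higher control. JUND measured 70.7, 113, 99.7 and 69.7 CPM in PHF10 knockdown, against 90.9 and 82.6 CPM in the controls, with 2 replicates above and 2 below both. The log2 fold change was 0.02 (SE 0.19; 95% interval −0.41 to 0.45; adjusted p = 0.962).

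ATF3, a stress-induced member of the ATF family, varied most between libraries of one group. It measured 30.0, 12.8, 4.89 and 7.77 CPM in PHF10 knockdown, against 13.2 and 5.06 CPM in the controls. The log2 fold change was 0.60 (SE 0.69; 95% interval −0.95 to 2.15; adjusted p = 0.662), and −0.11 without knockdown replicate 1. EGR1, a zinc finger factor that is a direct target of ERK signalling, measured 84.1, 48.3, 23.8 and 31.7 CPM in PHF10 knockdown, against 45.2 and 28.2 CPM in the controls. Its value was 0.36 (SE 0.43; adjusted p = 0.685), and −0.08 without knockdown replicate 1. IER2 measured 154, 116, 94.1 and 114 CPM in PHF10 knockdown, against 134 and 98.0 CPM in the controls, at 0.04 (SE 0.19; 95% interval −0.39 to 0.48; adjusted p = 0.928).

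**Figure D3:**
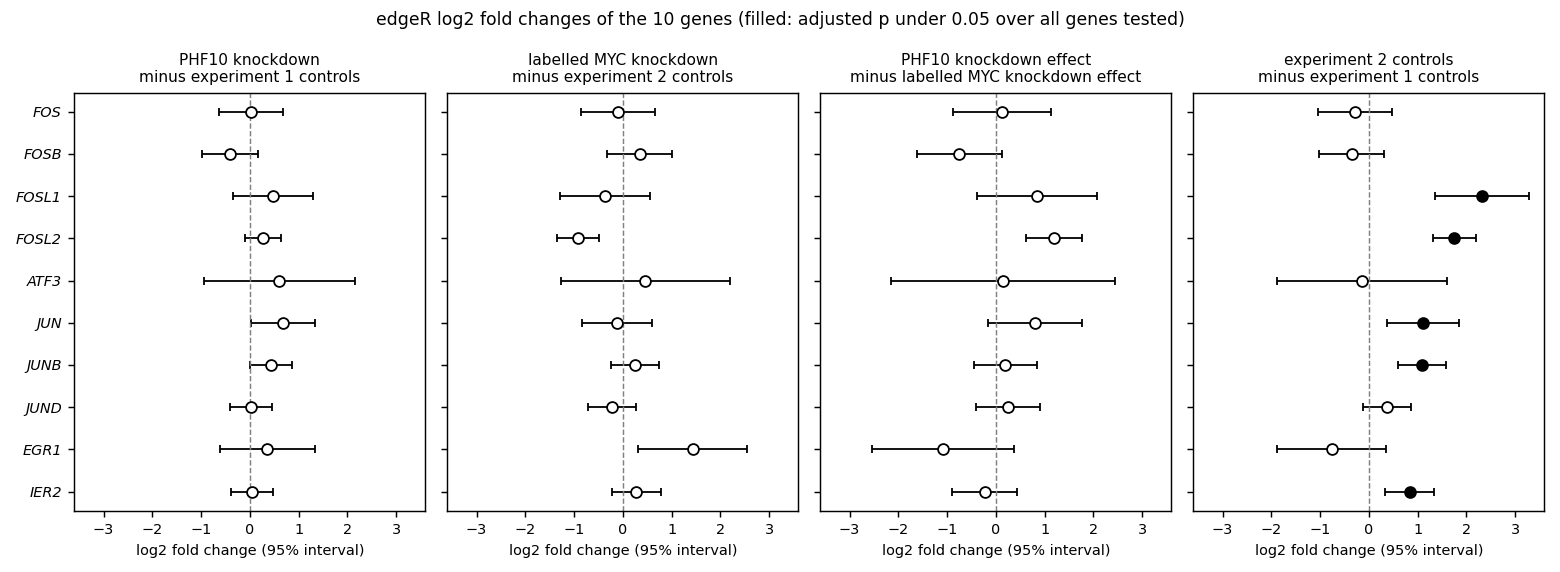
Log2 fold changes of the 10 genes (points) with 95% intervals (lines) in 4 panels: PHF10 knockdown minus the controls of experiment 1, labelled MYC knockdown minus the experiment 2 controls, the PHF10 effect minus the labelled MYC effect, and the experiment 2 controls minus those of experiment 1. Filled points mark an adjusted p under 0.05; they appear only in the panel of the controls, for FOSL1, FOSL2, JUN, JUNB and IER2.

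The level of several members moved with the share of reads outside genes in both groups of experiment 1. ATF3, EGR1, FOS, JUNB and IER2 were each higher in all 3 libraries with the high share than in all 3 with the low share, as were 9.43% of all genes, and 0 members were lower without overlap, as were 9.13%. JUNB and IER2 separated only narrowly, with a lowest value of 105.7 and 116 CPM at the high share and a highest of 105.6 and 114 CPM at the low share. Among PHF10 knockdown libraries the high pair exceeded the low pair by 1.66 log2 CPM for ATF3, 1.21 for EGR1 and 0.65 for FOS. Between the controls the same differences were 1.38, 0.68 and 0.75 log2 CPM. For JUNB they were 0.47 and 0.41, for IER2 0.37 and 0.45, and for JUND 0.10 and 0.14. JUN differed by 0.52 among the knockdown libraries and by 0.12 between the controls, FOSL2 by 0.48 and −0.00, FOSL1 by 0.21 and 0.12, and FOSB by 0.08 and 0.39. The interferon genes split the libraries the same way, and the part of either measure in these values was not tested.

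Within each part of that split, 2 PHF10 knockdown libraries could be set against 1 control, without a test. JUN was higher in knockdown by 0.80 log2 CPM in the part with the high share and by 0.40 in the part with the low share. JUNB gave 0.46 and 0.40, and FOSL1 0.39 and 0.30. FOSL2 gave 0.49 and 0.00, EGR1 0.49 and −0.04, and ATF3 0.56 and 0.28. FOSB was lower in knockdown in both parts, at −0.60 and −0.28. FOS, JUND and IER2 stayed within −0.03 and 0.08 in either part. With the high or low share as a term in the edgeR fit, JUNB was past the threshold at 0.43 (adjusted p = 0.0224) and was the only member called, beside 13.4% of all genes.

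**Figure D4:**
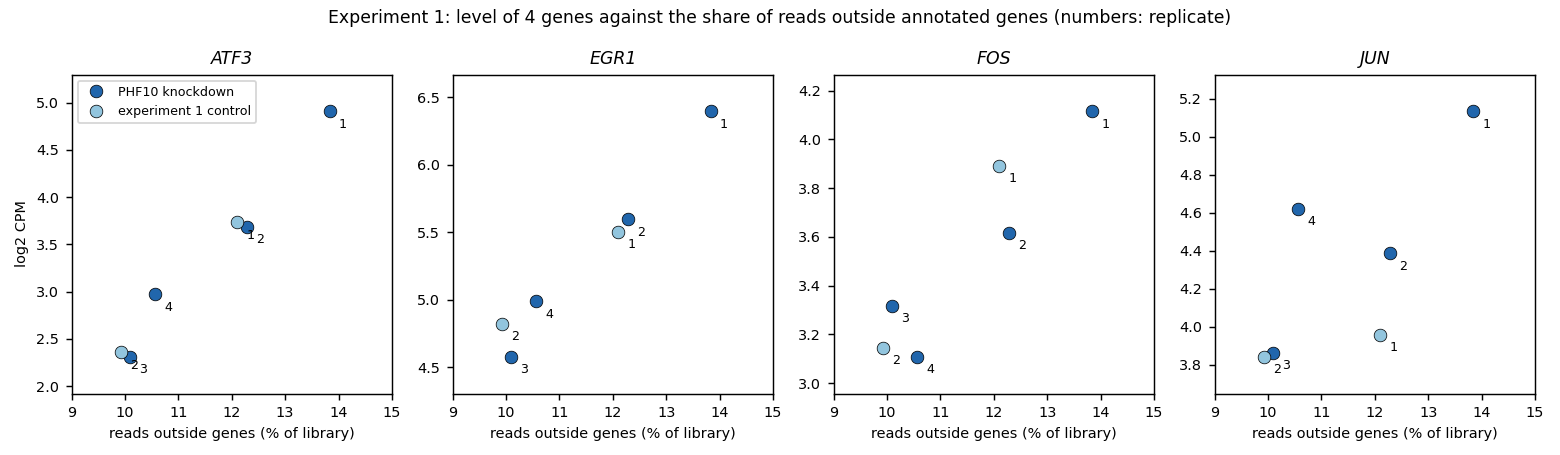
Log2 CPM of 4 of the genes in the 6 libraries of experiment 1 against the percent of each library's reads that fell outside annotated genes, with the replicate number beside each point. ATF3 and EGR1 are higher in the 3 libraries at 12.1% to 13.8% than in the 3 at 9.93% to 10.6%, for PHF10 knockdown and control libraries alike.

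The labelled MYC knockdown libraries were compared with the controls of experiment 2, where the study asked about the role of MYC. Again none of the 10 was past the threshold, which 0.493% of all genes passed. FOSL2 and EGR1 had an unadjusted p under 0.05, as did 13.2% of all genes. DESeq2 called FOSL2 alone of the 10 (adjusted p = 0.00154), beside 722 of 18450 genes. By limma-voom 0 of the 10 were called, beside 208 of 18450 genes. FOSB, JUNB, EGR1 and IER2 were higher without overlap of the groups, as were 33.6% of all genes, and FOSL1, FOSL2 and JUND were lower without overlap, as were 36% of all genes. These counts lie near the shares of all genes.

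FOSL2 measured 64.6 and 60.3 CPM in the labelled MYC knockdown libraries, against 119.8 and 117 CPM in the controls. Both labelled libraries were thus well under both controls, at a log2 fold change of −0.92 (SE 0.19; 95% interval −1.35 to −0.50; adjusted p = 0.0693). EGR1 measured 53.0 and 63.8 CPM in the labelled libraries, against 22.3 and 21.0 CPM in the controls. Its value of 1.43 (SE 0.50; 95% interval 0.31 to 2.56; adjusted p = 0.254) was the largest of the 10. The shared spread of the fit includes the noisier experiment 1. Fitted on experiment 2 alone, EGR1 gave 1.44 (edgeR adjusted p = 6.66e-13) and FOSL2 −0.91 (adjusted p = 4.6e-22). These p-values rest on the small spread between replicates of experiment 2, which may be only technical. In that fit 7 of the 10 genes were past the threshold, beside 44.5% of all genes, with FOSB, JUNB, EGR1 and IER2 higher and FOSL1, FOSL2 and JUND lower.

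FOSL1 measured 351 and 394 CPM in the labelled MYC knockdown libraries, against 486 and 478 CPM in the controls, at −0.37 (SE 0.41; adjusted p = 0.781). FOSB measured 19.8 and 23.4 CPM in the labelled libraries, against 17.1 and 16.8 CPM, at 0.35 (SE 0.30; adjusted p = 0.696). FOS measured 7.91 and 10.2 CPM in the labelled libraries, against 9.42 and 9.88 CPM, so its controls lay inside the range of the labelled libraries. Of the Jun genes, JUNB measured 224 and 245 CPM in the labelled libraries, against 207 and 188 CPM, at 0.25 (SE 0.22; adjusted p = 0.71). JUND measured 94.4 and 97.1 CPM in the labelled libraries, against 109 and 115 CPM, at −0.23 (SE 0.22; adjusted p = 0.743). JUN overlapped, with 26.2 and 32.6 CPM in the labelled libraries against 34.0 and 30.2 CPM. IER2 measured 233 and 269 CPM in the labelled libraries, against 213 and 201 CPM, at 0.28 (SE 0.22; adjusted p = 0.675). ATF3 measured 7.75 and 15.1 CPM in the labelled libraries, against 9.30 and 7.26 CPM, and the 2 labelled libraries lay on either side of the higher control.

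The difference between the PHF10 knockdown effect and the labelled MYC knockdown effect was tested directly, and none of the 10 was past the threshold, beside 0.385% of all genes. FOSL2 alone had an unadjusted p under 0.05, as did 11.7% of all genes. Its effect was higher by 1.19 on the log2 scale after PHF10 knockdown (SE 0.25; 95% interval 0.62 to 1.76; edgeR adjusted p = 0.0788). DESeq2 called FOSL2 (adjusted p = 0.00239), beside 633 of 18450 genes, while limma-voom called 0 members, beside 56 of 18450 genes. EGR1 differed the other way, by −1.08 (SE 0.65; adjusted p = 0.613). FOSL1 and JUN differed by 0.85 (SE 0.55) and 0.80 (SE 0.43), and FOSB by −0.75 (SE 0.39), all with intervals that include 0.

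In the controls of experiment 2, FOSL1, FOSL2, JUN, JUNB and IER2 were higher than in those of experiment 1, so 5 of the 10 were past the threshold in that direction, beside 8.05% of all genes (14.6% in either direction). FOSL1 was 5.02 times as high, at 482 ± 5.59 CPM in the controls of experiment 2 and 96.0 ± 5.49 CPM in those of experiment 1 (log2 fold change 2.33, SE 0.43, adjusted p = 0.00817; n = 2 each). FOSL2 averaged 119 ± 1.71 CPM in experiment 2 and 35.2 ± 0.0748 CPM in experiment 1, which gave 1.75 on the log2 scale (SE 0.20; adjusted p = 0.000774). JUNB averaged 198 ± 13.5 CPM in the controls of experiment 2 and 92.5 ± 18.7 CPM in those of experiment 1, at 1.09 (SE 0.22; adjusted p = 0.0119). JUN averaged 32.1 ± 2.71 CPM in experiment 2 and 14.9 ± 0.852 CPM in experiment 1, at 1.11 (SE 0.33; adjusted p = 0.0499). IER2 averaged 207 ± 8.65 CPM in experiment 2 and 116 ± 25.5 CPM in experiment 1, at 0.84 (SE 0.23; adjusted p = 0.0361). JUND, at 112 ± 4.43 CPM in experiment 2 and 86.8 ± 5.87 CPM in experiment 1, was higher without overlap, as were 34.5% of all genes, but not past the threshold (0.37, SE 0.22, adjusted p = 0.295).

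Not every member followed. FOSB averaged 16.9 ± 0.262 CPM in the controls of experiment 2 and 21.6 ± 4.11 CPM in those of experiment 1, and EGR1 21.7 ± 0.860 CPM in experiment 2 and 36.7 ± 12.1 CPM in experiment 1. Both were lower without overlap, as were 33.5% of all genes, at −0.35 (adjusted p = 0.466) and −0.76 (adjusted p = 0.339). FOS and ATF3 overlapped, at −0.29 (SE 0.34) and −0.14 (SE 0.78). The members' median was 0.60, against −0.02 over all genes. Culture, handling and sequencing of the 2 experiments cannot be told apart here, and both knockdown comparisons share their controls with this one. The controls of experiment 2 had 9.28% and 8.99% of reads outside genes, against 12.1% and 9.93% in those of experiment 1, and a mean of 2.91 and 2.85 log2 CPM over the 26 interferon genes, against 8.15 and 4.60. All 26 interferon genes had a negative log2 fold change, with a median of −4.13, and 1 of them was past the threshold, lower, beside 6.6% of all genes. PHF10 itself was higher in experiment 2 by 1.70 on the log2 scale (adjusted p = 0.000122). FOSL2 was called in all 20 alternatives and JUN in only 7. The FOSL1 call was lost without control replicate 1 or 2 of experiment 1 (adjusted p = 0.0574 and 0.0543). The JUNB call was lost without control replicate 2 of experiment 1 (0.0718) or control replicate 1 or 2 of experiment 2 (0.0878 and 0.0579, all adjusted p). JUN and IER2 lost theirs without any 1 of these 4 controls or of the labelled MYC knockdown libraries, with adjusted p of 0.0555 to 0.211, and JUN also without PHF10 knockdown replicate 2 or 4 (0.0535 and 0.0647).

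Genes that work with AP-1 were read from lists chosen with earlier results known. Of PHF10, MYC and the list genes of smallest p, 15 were called after PHF10 knockdown, 2 of them in all 20 alternatives. Such calls numbered 0 of 5 in the labelled MYC knockdown and 14 of 30 between controls. Losses of calls named below are those with a library left out. A gene given without such a loss was not thereby called in every alternative. Of all genes tested, 2.75% rose and 3.58% fell after PHF10 knockdown, 0.282% rose and 0.211% fell in the labelled MYC knockdown libraries, and 8.05% were higher and 6.6% lower in the controls of experiment 2 than in those of experiment 1. Of 14 tested AP-1 partners and dimerisation relatives, 1 rose and 2 fell after PHF10 knockdown, with a list median log2 fold change of −0.09. NFE2L2, the regulator of antioxidant genes, fell to 64.4 ± 2.47 CPM, against 106 ± 2.02 CPM in the controls (−0.71, SE 0.09, adjusted p = 0.00352). BATF3, a Jun partner, fell to 1.36 ± 0.351 CPM, against 3.55 ± 1.23 CPM (−1.37, SE 0.30, adjusted p = 0.0266). The BATF3 call was lost without either control or any 1 library of experiment 2. In the labelled MYC knockdown libraries none of the 14 was past the threshold (median −0.21). In the controls of experiment 2, 4 were higher and 0 lower than in those of experiment 1 (median 0.36), among them the small Maf genes MAFG (0.81, adjusted p = 0.00702) and MAFF (1.36, adjusted p = 0.0131).

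Of 32 tested other immediate early genes, 2 rose and 0 fell after PHF10 knockdown (median 0.32, against 0.02 over all genes). BTG2, an antiproliferative p53 target, rose to 83.8 ± 15.6 CPM, against 27.8 ± 2.65 CPM (1.59, SE 0.18, adjusted p = 0.00277), and was called in all 20 alternatives. PLK3, a stress-responsive kinase, rose by 0.54 (SE 0.13, adjusted p = 0.0452) and was called in only 7, losing the call without knockdown replicate 1, 2 or 3 or without any 1 library of the other groups. In the labelled MYC knockdown libraries 1 rose and 0 fell (median 0.13). EGR3, a relative of EGR1, rose to 71.0 ± 10.6 CPM there, against 28.7 ± 3.88 CPM in the controls (1.31, SE 0.22, adjusted p = 0.0428). The EGR3 call was lost without PHF10 knockdown replicate 3 or 4. It was also lost without any 1 library of experiment 2, but such a fit lost the calls of all genes alike. In the controls of experiment 2, 7 were higher and 1 lower than in those of experiment 1 (median 0.46), with KLF10 at 1.69 (adjusted p = 0.000242), NFKBIZ at 2.35 (adjusted p = 0.000494) and BTG2 at −1.22 (adjusted p = 0.00493). For BTG2 the PHF10 knockdown effect exceeded the labelled MYC knockdown effect by 1.61 (adjusted p = 0.0461), a call held in 8 of 19 alternatives.

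Of 16 ERK output and feedback genes, 1 rose and 1 fell after PHF10 knockdown (median 0.06). SPRY4, a feedback inhibitor of receptor signalling, fell to 273 ± 30.8 CPM, against 487 ± 92.2 CPM (−0.83, SE 0.14, adjusted p = 0.012), a call lost without control replicate 1. The cytokine gene IL11 rose to 30.3 ± 8.33 CPM, against 13.5 ± 3.66 CPM (1.17, SE 0.26, adjusted p = 0.0282), a call lost without either control or any 1 library of experiment 2. None of the 16 was past the threshold in the labelled MYC knockdown libraries (median 0.19), where the ERK phosphatase gene DUSP6 stood at 0.91 (adjusted p = 0.0818), the feedback inhibitor gene SPRY1 at −1.05 (adjusted p = 0.0966) and SPRY4 at 0.64 (adjusted p = 0.142). The 2 effects on SPRY4 differed by −1.48 (SE 0.22, adjusted p = 0.0369), called in 11 of 19 alternatives. Between the controls, experiment 2 had 4 higher and 2 lower (median 0.27), among them CCND1, the cyclin D1 gene, at 1.69 (adjusted p = 0.00238).

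Of 30 known AP-1 target genes, 5 rose and 0 fell after PHF10 knockdown (median 0.29). The collagen receptor gene ITGA2 rose to 381 ± 101 CPM, against 89.6 ± 18.6 CPM (2.09, adjusted p = 0.00352), and TIMP1, a metalloproteinase inhibitor, to 660 ± 75.1 CPM, against 355 ± 20.7 CPM (0.89, adjusted p = 0.00889). The cytokine gene LIF rose by 0.89 (adjusted p = 0.0162) and the integrin gene ITGAV by 0.56 (adjusted p = 0.026). Without either control the TIMP1 and ITGAV calls were lost, and without control replicate 2 that of LIF. In the labelled MYC knockdown libraries 1 rose and 2 fell (median −0.10). The gelatinase gene MMP9 fell to 35.3 ± 3.63 CPM, against 216 ± 3.74 CPM (−2.61, SE 0.23, adjusted p = 0.0063), CAV1 fell to 21.0 ± 0.587 CPM, against 59.4 ± 0.948 CPM (−1.50, adjusted p = 0.0203), and TIMP1 rose to 592 ± 34.8 CPM, against 229 ± 15.7 CPM (1.37, adjusted p = 0.0143). Each of these 3 calls was lost without any 1 library of experiment 2, but such a fit lost the calls of all genes alike. It therefore cannot weigh these 3 calls. Between the controls, 12 were higher in experiment 2 and 2 lower (median 0.91), and MMP9 averaged 216 ± 3.74 CPM in experiment 2 and 1.73 ± 0.310 CPM in experiment 1 (6.96, SE 0.29, adjusted p = 5.04e-06).

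Profiles over the 10 libraries, centred within each experiment, had an SD of at least 0.5 log2 CPM for ATF3 (0.79) and EGR1 (0.69) only. Among 11534 other genes with a mean of at least 5 CPM, the profiles nearest to ATF3 by root mean square difference were those of TRIML2 (0.295), C11orf96 (0.310) and CDCP1 (0.317). For EGR1 they were H2AC6 (0.255), NKILA (0.270) and GAS6-AS1 (0.272). The other 8 members had SDs of 0.22 for JUND to 0.45 for FOSL1.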

How the data were processed

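Poly(A) RNA was made into directional libraries and read as single ends of 100 nt, per the labels' protocols. The authors trimmed reads with cutadapt and used STAR against hg38 (GRCh38.p13), according to the submitters' processing notes. Tool versions were not given in these sources. The deposited files hold raw read counts per Ensembl gene in an unstranded and 2 stranded columns. The opposite-strand column was used; the same-strand column held 5.26% to 5.55% of stranded gene reads. Antisense genes overlap JUNB, FOSB, FOSL2 and IER2, but of these only JUNB and IER2 had fewer reads in the unstranded column. In PHF10 knockdown replicate 1 they had 2686 unstranded against 3547 stranded reads (JUNB) and 1337 against 3436 (IER2). The unstranded column changed no call among the members. Lines that name no gene (19.1% to 23.6% of reads) stayed out of library sizes.

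Counts of all 10 libraries were fitted as 4 groups with edgeR 4.0.16 (R 4.3.3; TMM, filterByExpr, robust quasi-likelihood, 6 residual degrees of freedom), adjusted over 18450 genes. Groups were taken from the sample titles. Alternatives were DESeq2 1.42.0, limma-voom 3.58.1, RLE or upper-quartile factors, low-count filters of none or 1 CPM in 4 libraries, unstranded counts, each comparison's libraries alone, a replicate block, a term for the share of reads outside genes in experiment 1, and each library left out; a library left alone in its group was assumed to vary like the others. Log2 CPM used a prior count of 2. The fits were also run on simulated counts, and no statement here draws on the outcome. The simulated counts had 1 spread per gene, taken from the reported fit, for all libraries. They therefore do not test the effect of the unequal spread of the 2 experiments. Replicates differed beyond sampling noise, so none repeated the counts of another. That check cannot tell separate cultures from libraries made from the same culture. The shallowest member value rests on 117 reads. The 10 genes and the lists were chosen with earlier results of these data known. Besides these genes, PHF10 and MYC, the text names up to 4 genes per list, those of smallest unadjusted p, the 3 genes nearest in profile, and markers that define a cell type or make up most of a marker sum. Some genes the rule takes are not reported here. Symbols came from gene tables for 60295 of 60623 IDs, and exon lengths from GENCODE release 29.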

Additional observations from a re-analysis of the deposited data

How the results depend on the processing

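The 5 members called between controls kept their sign in every alternative. Signs did change among values not called, of which only examples are given. After PHF10 knockdown FOS kept its sign in 18 of 20 alternatives, ATF3 in 19 and JUND in 16. EGR1 turned negative without PHF10 knockdown replicate 1. As reported, none of the 10 was called after PHF10 knockdown, in the labelled MYC knockdown or in the difference of effects, against 5 between controls. After PHF10 knockdown 1 was called with no filter (JUN, adjusted p = 0.0107) and 1 with the term for reads outside genes (JUNB, 0.0224); leaving out a library gave 0 to 0. In the labelled MYC knockdown 1 was called by DESeq2 (FOSL2), 2 with no filter and 2 with the term for reads outside genes (FOSL2 and EGR1 both times), 7 in experiment 2 alone and 0 to 1 with a library left out: FOSL2 without PHF10 knockdown replicate 1, 2 or 4 (edgeR adjusted p = 0.0464, 0.0495 and 0.0405). For the difference, 1 was called by DESeq2 and 1 with the term for reads outside genes (FOSL2), 2 with no filter (FOSL2 and EGR1), and 0 to 1 with a library left out (FOSL2 without PHF10 knockdown replicate 4, 0.0442). Between controls 3 were called with upper-quartile factors and 1 to 5 with a library left out. The cause was not tested. Of the members' values, 197 of 200 kept their side of the threshold after PHF10 knockdown, 185 of 200 in the labelled MYC knockdown, 185 of 190 for the difference and 171 of 200 between controls.

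Over all genes, 1169 were called after PHF10 knockdown, against 2180 by DESeq2, 2372 with no filter, 2467 with the term for reads outside genes, 50 in experiment 1 alone, 214 and 219 without control replicate 1 and 2, and 594 to 626 without a library of experiment 2. In the labelled MYC knockdown 91 were called, against 722 by DESeq2, 208 by limma-voom, 911 with no filter, 558 with the term and 7781 alone. Leaving out a library gave 0 without any 1 library of experiment 2, 58 or 59 without a control of experiment 1 and up to 231 without a PHF10 knockdown library. For the difference 71 were called, against 633 by DESeq2, 918 with no filter, 489 with the term and 1 to 140 with a library left out. Between controls 2702 were called, against 4329 alone and 554 to 3428 with a library left out. Upper-quartile factors put 37.8% of these calls higher in experiment 2, against 55% as reported, and moved the median of all genes to −0.13.

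With the replicate number as a block, 1 member was called after PHF10 knockdown (EGR1, 0.84, adjusted p = 0.0389), 0 in the labelled MYC knockdown, 0 for the difference and 3 between controls (FOSL2 and JUNB higher, EGR1 lower). Over all genes the block gave 869, 0, 1 and 1424 calls; the 0 of the labelled MYC knockdown compares with 3036 genes at an unadjusted p under 0.05 in the same edgeR fit. Deviations of libraries with the same number correlated at 0.609 and −0.422 in experiment 1 and −0.083 in experiment 2, so the numbers were not taken as pairs.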

Other observations

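Of 24 kinases and transcription factors upstream of AP-1, 1 rose and 0 fell after PHF10 knockdown, beside 2.75% and 3.58% of all genes. The gene that rose was RPS6KA1, an ERK-activated kinase gene, at 103 ± 8.40 CPM in PHF10 knockdown and 71.5 ± 4.11 CPM in controls. Its log2 fold change was 0.53 (edgeR adjusted p = 0.0201), a call lost without either control or any 1 library of experiment 2. ELK3, a ternary complex factor gene, stood at −1.20 (adjusted p = 0.0846). In the labelled MYC knockdown libraries none of the 24 was past the threshold, and MAPK8, a Jun kinase gene, stood at −0.74 (adjusted p = 0.0596). Between controls, 9 were higher in experiment 2 and 0 lower, beside 8.05% and 6.6% of all genes. Among the 9 was RPS6KA5, a kinase of CREB and histone H3, at 1.08 (adjusted p = 0.00175), called in all 20 alternatives. CREB1 followed at 0.70 (adjusted p = 0.00747), a call lost without control replicate 2 of either experiment, and the ternary complex factor gene ELK1 at 0.66 (adjusted p = 0.0251), a call lost without any 1 control or any 1 library labelled MYC knockdown.

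Marker sums differed between some groups. The 10 melanocyte lineage markers summed to 1955 to 3849 CPM in PHF10 knockdown and 2116 to 2126 CPM in its controls, and to 2937 to 3047 CPM in the labelled MYC knockdown libraries and 2315 to 2323 CPM in their controls. CSPG4 alone ran from 975 to 2601 CPM in PHF10 knockdown, against 787 to 817 CPM in its controls. Of 8 markers tested there, 6 had a negative and 2 a positive log2 fold change (median −0.36). S100B was lower (−1.11, edgeR adjusted p = 0.00924), the only 1 past the threshold, beside 3.58% of all genes. The 7 immune markers, nearly all CD74, summed to 2886 to 4003 CPM in PHF10 knockdown and 3791 to 3949 CPM in its controls, and to 2396 to 2623 CPM in the labelled MYC knockdown libraries and 2435 to 2508 CPM in their controls. The 7 epithelial markers summed to 12.6 to 14.5 CPM in the labelled MYC knockdown libraries and 31.7 to 33.6 CPM in their controls, and to 27.0 to 49.8 CPM in PHF10 knockdown and 22.5 to 24.4 CPM in its controls. The 5 endothelial markers, mostly KDR, summed to 8.96 to 204 CPM in PHF10 knockdown and 46.8 to 61.3 CPM in its controls, and to 31.1 to 32.6 CPM in the labelled MYC knockdown libraries and 51.5 to 57.2 CPM in theirs. The 7 fibroblast markers summed to 46.3 to 81.3 CPM in PHF10 knockdown and 46.0 to 72.8 CPM in its controls, and to 22.7 to 26.5 CPM in the labelled MYC knockdown libraries and 24.2 CPM in both controls of experiment 2. After PHF10 knockdown 4 of the 7 fibroblast markers had a positive and 3 a negative log2 fold change. Only COL3A1 was past the threshold, at 2.66 CPM against 0.295 CPM in controls (3.16, edgeR adjusted p = 0.0141), beside 2.75% of all genes higher. The part of all these markers in the levels of the AP-1 genes was not tested.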
